A study of Xenopus tropicalis with 40 samples.

Results

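The gene sptan1 encodes the non-erythroid alpha spectrin, also called alpha-II spectrin, and it is described here through its very short exons. It was chosen by measured values, its number of internal exons of 27 bases or less in the transcript catalogue of this Xenopus tropicalis series and the transcripts with and without them. It is 1 of 8368 gene symbols in that catalogue. These numbers are therefore a description and carry no test. Polyadenylated RNA of whole embryos of an outbred strain was sequenced as 40 strand-marked libraries. They cover 23 stages, from the embryo of 2 cells to stage 44-45, in clutches 1 and 2, with 16 libraries of clutch 1 and 24 of clutch 2. The values used here come from 1 assembly pooled over the series, so no stage or clutch is compared, no library depth is known, and there are no replicates behind any value.

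Alpha-II spectrin pairs with beta spectrin into long, flexible tetramers that link short actin filaments into the skeleton under the plasma membrane. It is built of a chain of triple-helical spectrin repeats, with an SH3 domain in the middle, a stretch nearby that calmodulin binds and calpain cleaves, and EF hands at the carboxyl end. In nerve cells it is part of a periodic membrane skeleton along axons and is needed at the nodes of Ranvier. A microexon is an exon so short that it adds only a few amino acids. In vertebrates many microexons are included in neurons, and some in muscle. In mammals, alpha-II spectrin itself is known to be made with and without several short inserts, among them one beside the SH3 domain, and in rat one that is found mainly in heart muscle.

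The symbol was carried by 135 transcript models, a model being 1 assembled chain of exons. Of these, 133 lay on the strand of sptan1, all at 1 locus of 44191 bases on the minus strand of scaffold GL172790, from 259490 to 303680 counted from 1. All 133 were assembled from reads, had more than 1 exon and carried the code for a junction chain that differs from the annotation. RefSeq transcripts listed for sptan1 numbered 8, and no model carried the code for a match to an annotated chain. In the background, 61.7% of the 7244 annotated genes with an internal exon also had no model with an annotated chain. The models held 4 to 54 exons, with a median of 36 and quartiles of 31 and 39, and were 582 to 7615 bases long with a median of 4880. The near-complete models stood apart from the rest: 13 models had 52 to 54 exons, none had 42 to 51, 90 had 30 to 41, and 30 had fewer. Each model has a relative weight, a deposited score of at most 1. The weight was 1 in 76 models and 0.111 to 0.5 in the other 57.

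Against all annotated genes, sptan1 ranked high on every size measure. Its 133 models were exceeded by 17 genes and equalled by 1, where the median gene had 6. Its largest exon number of 54 was exceeded by 16 genes, where the median was 10. It had 140 distinct internal exons, which are exons with another exon on either side, told apart by their exact ends, and 15 genes had more.

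Of the 140 internal exons, 136 were placed in 55 positions along the gene, a position being a set of overlapping internal exons, and 4 forms that hold a spliced intron were left out. They are numbered from the 5′ end, and the form in most models is called the leading form. At 17 positions a single form was seen and at 38 there were several, with at most 7. Leading forms were 15 to 297 bases long with a median of 134, and 29 of the 55, or 52.7%, had a length that is a multiple of 3. Over all distinct internal exons, and not leading forms only, the share was 42.1% in sptan1, or 59 of 140, and 38.1% in annotated genes. Only 3 leading forms had 27 bases or less. The introns between neighbouring leading forms were 75 to 9011 bases long with a median of 164.

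Of the 140 distinct internal exons of sptan1, 14 were microexons, or 10% of them, against 2.94% of the 108577 internal exons of all annotated genes. In the background, 20.0% of the 7244 genes had at least 1 microexon, 3.49% had at least 3 and 0.345%, or 25 genes with sptan1 among them, had 14 or more. Long genes held more: of the 73 genes with 40 or more exons, 57.5% had at least 1 and 12.3% had 14 or more. So did genes with many models, since 20 of the 107 genes with 60 or more models reached 14, and microexons made up a median of 6.42% of the internal exons of those 107 genes. At least 1 microexon was present in 110 of the 133 sptan1 models, and 23 had none. All 14 were skipped by at least 1 model, meaning that they lay whole inside an intron of it, against 70.9% of the microexons of annotated genes. All 140 internal exons of sptan1 were skipped by some model, against 39.6% of the internal exons of annotated genes. Since every internal exon of sptan1 was skipped by some model, this measure does not tell its exons apart.

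Of the 14 microexons, 11 lay at 3 short positions: 4 of an exon of 21 bases, 1 of an exon of 15 bases and 6 of an exon of 18 bases. The remaining 3 were short forms of exons of 205, 123 and 55 bases. Only 4 of the 14 had a length that is a multiple of 3, against 45.6% of the microexons of annotated genes, but these 4 included the leading form of all 3 positions. They would add 7, 5 and 6 amino acids in frame if they are coding, which the gene models do not record. The lengths just inside the limit were 25 bases, in 4 and in 3 models, and 23 bases, in 4 and in 1. Just outside it lay forms of 32, 33 and 34 bases in 1 model each, another form of 34 bases in 8 models, and the exon of 36 bases in 50.

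**Figure D1:**
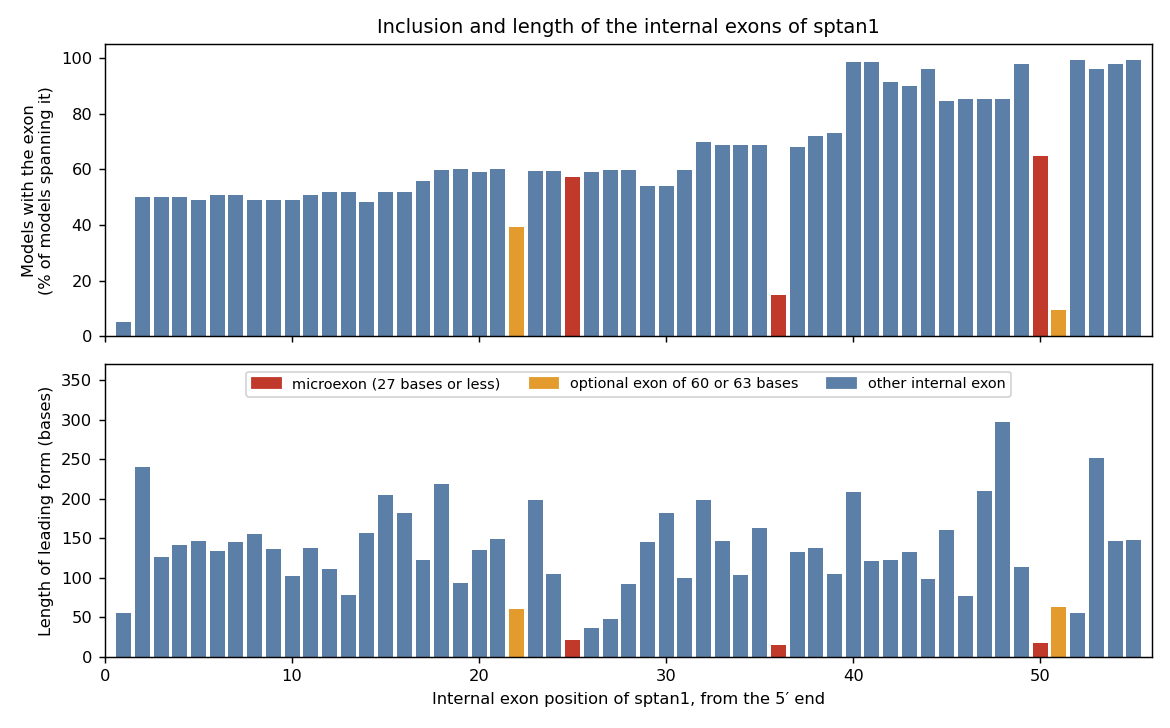
Upper panel: percent of the sptan1 models spanning each internal exon position that hold any form of it (vertical axis) by position from the 5′ end (horizontal axis). Lower panel: length of the leading form in bases. The 3 microexon positions hold 21, 15 and 18 bases, the optional exon of 63 bases is in 9.38% of models, and most positions from 40 on are in more than 84%.

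The 18-base exon was the microexon in most models. It is position 50, at 269510 to 269527 of the scaffold, between exons of 113 and 55 bases, with an intron of 218 bases before it and 2003 bases to the exon of 55 bases after it. Of 128 models spanning it, which are those with exon sequence on both sides, 83 held some form of it, or 64.8%. The exact 18-base form was in 75 models. Its other forms had 21 bases in 3 models, 20 bases in 2, and 19, 22 and 23 bases in 1 model each. Of the 45 models without it, 1 skipped it alone and 44 had a junction that passed it together with other exons, in most cases only with the exon of 63 bases that follows. Among the 122 models that used both flanking splice sites, the donor of the exon before and the acceptor of the exon after, 83 held it and 39 did not, an inclusion of 68.0%.

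The 21-base exon was nearly always present where its surroundings were. It is position 25, at 279302 to 279322, with 1375 bases of intron before it and 178 after it, and the next exon has 36 bases. It was in 70 of 122 spanning models, or 57.4%, and 60 models had the exact 21-base form. Forms of 23 bases in 4 models and of 22 bases in 4 and in 2 models moved an end by 1 or 2 bases, and none of these has a length that is a multiple of 3. Only 2 models skipped it alone, while 50 passed it together with other exons. Among the 53 models that used both flanking splice sites it was in 51, or 96.2%. This measure also leaves out models that hold the exon, since 51 of the 70 were kept. Of the 60 models with the exact form, 41 joined it to the acceptor of the leading 36-base form.

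The 15-base exon was the one mostly left out, and it had a single form. It is position 36, at 274913 to 274927, between introns of 1080 and 1197 bases. It was in 18 of 122 spanning models, or 14.8%, 10 of which had weight 1. Another 64 models skipped it alone and 40 passed it together with others. With both flanking splice sites used, 18 models held it and 58 did not, an inclusion of 23.7%. The order of inclusion by this measure was 21, 18 and then 15 bases. By all spanning models it was 18, 21 and then 15, so the order of the first 2 depends on how models that jump over whole stretches are counted.

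Longer optional exons lay close to 2 of the microexons. An exon of 60 bases, position 22 at 282373 to 282432, was in 47 of 120 spanning models, or 39.2%. It was skipped alone by 24 models. Of the 71 models that used both flanking sites, 47 held it, or 66.2%. An exon of 63 bases, position 51 at 268217 to 268279, was in 12 of 128, or 9.38%, and was skipped alone by 72 models. Of the 122 models with both flanking sites, 12 held it, or 9.84%. Both lengths are multiples of 3, which makes 20 and 21 amino acids if coding. Inserts of these sizes are known in mammals, the first beside the SH3 domain and the second in the heart-selective form of rat, but no sequence was compared here and the frog exons are not identified with them. The only other exon in few models was one of 55 bases, position 1 at 300023 to 300077, in 2 of 38 spanning models.

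**Figure D2:**
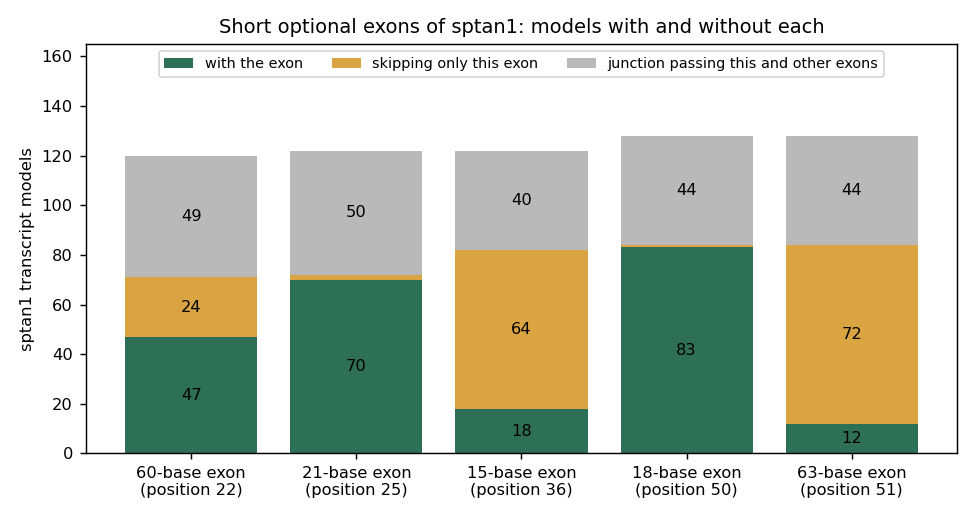
Number of sptan1 models (vertical axis) with each of the 5 short optional exons, skipping that exon alone, or passing it and other exons in 1 junction. The 21-base exon was skipped alone by 2 models and the 18-base exon by 1, against 64 for the 15-base, 24 for the 60-base and 72 for the 63-base exon. In 38 models 1 junction passed the 18-base exon together with only the 63-base exon, and these are counted as passing it and other exons.

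The 3 microexons that were short forms of longer exons were in few models. At position 15 an exon of 25 bases, 285066 to 285090, kept the donor of the 205-base exon and was in 4 of 112 spanning models. In all 4 it was joined to position 13, so that position 14 was left out. At position 17 an exon of 25 bases, 284068 to 284092, kept the donor of the 123-base exon and was in 3 of 118. At position 52 an exon of 17 bases, 267452 to 267468, kept the donor of the 55-base exon and was in 1 of 130. In that model, of 6 exons, it followed a first exon of 9 bases with its donor at 268025. None of the 3 lengths is a multiple of 3. Against the leading form, however, the form at position 15 lacks 180 bases, which is a multiple of 3, as are the 156 bases of position 14 left out with it. The forms at positions 17 and 52 lack 98 and 38 bases, which are not multiples of 3.

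Combinations of the optional exons were read from models that used both flanking splice sites of each exon concerned. The size selection of the libraries, 300 to 600 bases per the labels, limits what 1 fragment can link. The 18- and 63-base exons are neighbours, and 304 bases of exon lie between the 60- and 21-base exons. Between the 21- and 15-base exons lie 1215 bases, and between the 15- and 18-base exons 1916, so those links were made by the assembly and not by single fragments.

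The 18- and 63-base exons occurred together in 11 of 122 models, the 18-base exon without the other in 72, the 63-base exon without the other in 1, and neither in 38. The 63-base exon was thus in 11 of 83 models with the 18-base exon, or 13.3%, and in 1 of 39 without it, or 2.56%. The 60- and 21-base exons occurred together in 32 of 52 models, the 21-base exon without the 60-base exon in 19, and neither in 1. No model had the 60-base exon without the 21-base exon. The 21-base exon was in 32 of 32 models with the 60-base exon, or 100%, and in 19 of 20 without it, or 95%. The 18-base exon was in 8 of 18 models with the 15-base exon, or 44.4%, and in 44 of 57 models without it, or 77.2%. The 15-base exon was in 10 of 44 models with the 60-base exon, or 22.7%, and in 6 of 18 without it, or 33.3%. Models of 1 locus share exons and are not replicates, so these shares carry no error.

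All 5 optional exons could be read in 44 models, which used 9 of the 32 possible combinations. The combination of the 60-, 21- and 18-base exons was in 17 models, and that of the 21- and 18-base exons in 8. The 21- and 15-base exons, the 60- and 21-base exons, and these 3 exons together were in 4 models each. The 60-, 21-, 15- and 18-base exons were together in 3, the 21-, 15- and 18-base exons in 2, the 18-base exon alone in 1, and all but the 15-base exon in 1. The 21-base exon was absent from 1 of the 44 models and the 63-base exon was present in 1. Both thus varied little here, which limits how many of the 32 combinations could be seen.

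**Figure D3:**
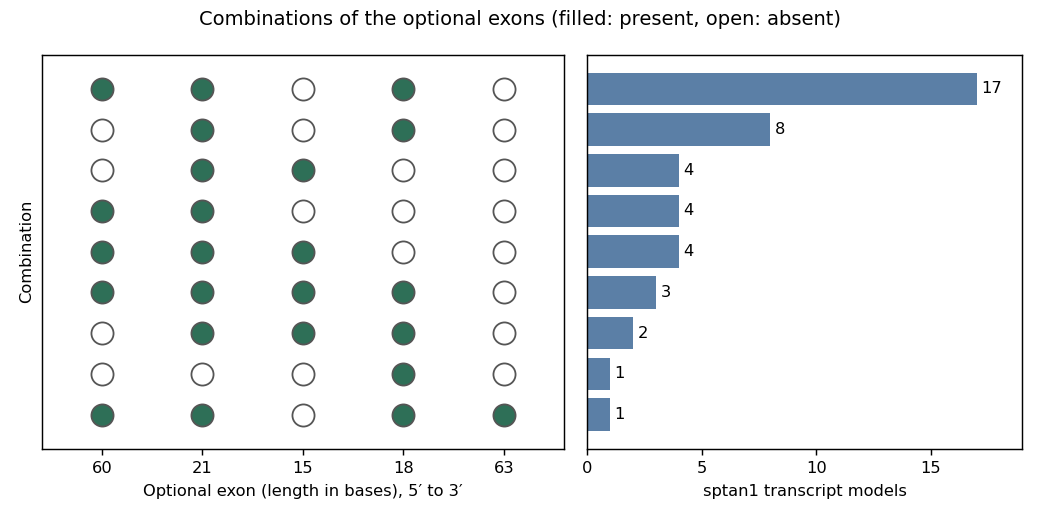
The 9 combinations of the 5 optional exons seen in 44 sptan1 models; rows are combinations, filled circles mark exons present (left, 5′ to 3′ by length in bases), and bars give the number of models (right). The most frequent, with 17 models, holds the 60-, 21- and 18-base exons.

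The 13 near-complete models, with 52 to 54 exons and 6988 to 7615 bases, never held the 15-base or the 63-base exon. The 60-base exon was in 8 of them, the 21-base exon in 12 and the 18-base exon in 10. All 4 models of 54 exons had the 60-, 21- and 18-base exons together. Only 1 of the 13 had weight 1. In these 13 models the 55 positions of the catalogue are therefore seen at most 52 at a time, beside a first and a last exon.

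Inclusion of the longer exons followed their place in the gene. Positions 2 to 16 were each in 48.2% to 51.8% of the models spanning them, positions 17 to 31 in 54.1% to 60% apart from the 60-base exon, positions 32 to 39 in 68.0% to 72.9% apart from the 15-base exon, and positions 40 to 55 in 84.4% to 99.2% apart from the 18- and 63-base exons. Most of these steps came from a few junctions that pass many exons at once. A junction from 284191 to 295809, in 47 models, passed positions 2 to 16, which hold 2196 bases. One from 272903 to 284791, in 31 models, passed positions 17 to 39 with 2708 bases and so all of the 60-, 21- and 15-base exons. One from 277281 to 284791, in 12 models, passed positions 17 to 31 with 1706 bases. The exon bases passed were a multiple of 3 for the first and left a remainder of 2 for the other 2. The first starts from a first exon and not from an internal exon, so its multiple of 3 says nothing of frame.

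Junctions that passed 10 or more positions numbered 9, and 99 of the 133 models, or 74.4%, had at least 1. Among the 73 genes with 40 or more exons, 47.9% had at least 1 such model and the median share of models was 0%. In 3 of those genes the share was above that of sptan1. Models with such a junction had a median of 35 exons and weight 1 in 64 of 99 cases, and models without one had a median of 38 exons and weight 1 in 12 of 34. The 15-base exon was in 15 of 56 models with a long junction that used both of its flanking sites, or 26.8%, and in 3 of 20 models without, or 15%. For the 18-base exon the shares were 60 of 93, or 64.5%, and 23 of 29, or 79.3%.

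**Figure D4:**
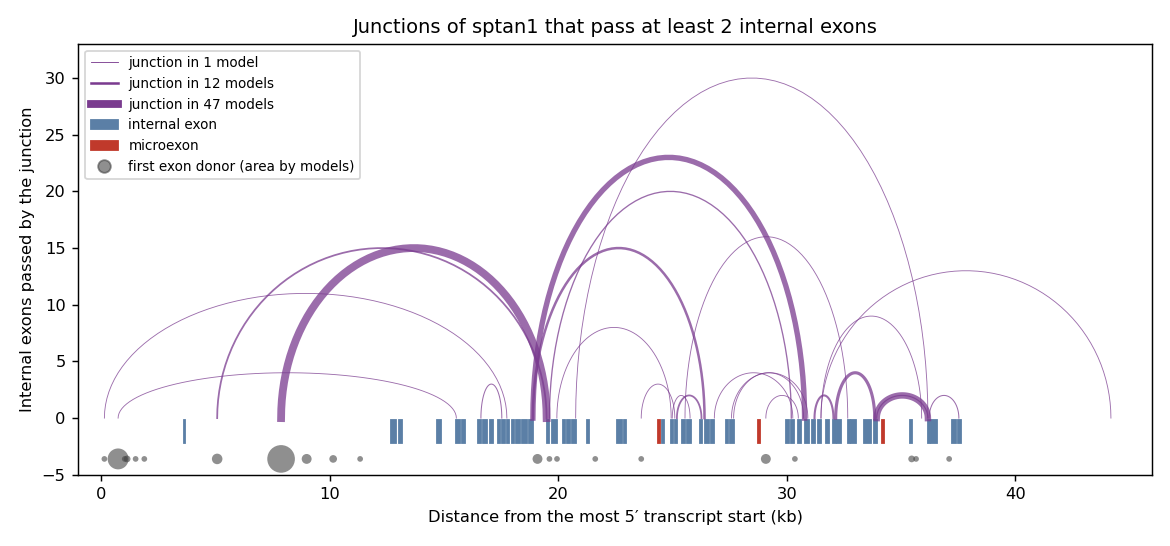
Junctions of sptan1 that pass at least 2 internal exon positions, by distance from the most 5′ transcript start in kb (horizontal axis) and number of positions passed (height of the arc); line width grows with the number of models, bars mark exons with microexons in red, and dots mark first exon donors. The thickest arc, in 47 models, passes 15 positions, and the arc in 31 models passes 23.

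Shorter junctions also left out sets of exons. Positions 45 to 48, with 744 bases, were passed by a junction from 269834 to 271541 in 16 models, all of which joined it to a short form of the exon at position 49. Positions 42 and 43, with 255 bases, were passed in 9 models, and positions 29 and 30, with 327 bases, in 7. With the 25 bases that the short form at position 49 lacks, the first of these left out 769 bases, which is not a multiple of 3. The second left out 255 bases, and the third 387 with the 60 bases that its form of position 31 lacks, and both are multiples of 3. The pair of the 18- and 63-base exons was passed by the junction from 267507 to 269745 in 38 models.

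The models began at 21 different first exon donors but nearly all ended in 1 last exon. The last exon, 265660 to 265938 with 279 bases, was shared by 129 models, and the other 4 models each ended in an exon of 8 bases elsewhere. The most distal frequent first exon, with its donor at 302942, was used by 32 models from 15 starts, was 133 to 457 bases long, and in 29 models was joined to position 2. The donor at 295810 was used by 57 models. In 47 of these the first exon had 10 bases or less, and all 47 carried the junction over positions 2 to 16. A first exon of 10 bases or less opened 75 of the 133 models, or 56.4%, against 8.75% of all assembled models of annotated genes. Among the 73 genes with 40 or more exons the median was 4.35%, and 1 gene had a higher share. The part that such short ends play in the long junctions and in the inclusion values was not tested.

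Microexon use was also set out by first exon, again over models with both flanking sites. The 15-base exon was in 14 of 38 models that began with 10 bases or less at 295810, or 36.8%, in 0 of 16 that began at 302942, and in 4 of 22 of the others, or 18.2%. The 18-base exon was in 28 of 45, or 62.2%, in 22 of 29, or 75.9%, and in 33 of 48, or 68.8%. The 21-base exon was in 30 of 30, in 8 of 9 and in 13 of 14. The 15-base exon thus varied most between these classes of models, but each class is a set of linked models from 1 pooled assembly.

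Besides whole exons, exon ends varied at 81 forms. Relative to the leading form, 54 moved the acceptor, 26 the donor and 1 both, and 26 kept the length difference a multiple of 3. Small moves were common: 34 of the 81 were of 1 to 4 bases, among them 6 acceptor and 3 donor moves of 3 bases. In 44 cases the form was in a single model, and 9 forms were in 5 or more. The most frequent was an 88-base form of the 113-base exon at position 49, in 16 models, just before the 18-base microexon. Next was a 130-base form of the 132-base exon at position 37, in 10 models. This position lies just after the 15-base microexon, but all 18 models with that microexon joined the 132-base form. In 5 models the 130-base form followed a first exon of 8 bases or less that lies on the 3′ side of the microexon. Forms of 40 and 39 bases of the 36-base exon at position 26, just after the 21-base microexon, were in 9 and 8 models. The 36-base exon itself had 7 forms, as many as any position. At position 16 a 34-base form of the 182-base exon, in 8 models, had moved its donor by 148 bases.

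Retained introns, which lie whole inside an exon of another model, numbered 6 of the 168 distinct introns of sptan1. Of these, 4 were spliced in 49 to 106 models and kept in 1 to 3. One of 219 bases was spliced in 2 models and kept in 3. The last, of 202 bases inside the 297-base exon at position 48, was spliced in 2 models and kept in 107. Pairs of exons that used the same flanking splice sites but never occurred in 1 model numbered 5, and for none of them was each exon in at least 2 such models. The counts of end forms, retained introns and exclusive pairs are not set beside those of other genes here.

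Of 11 other genes of the membrane skeleton with an internal exon, 3 had a microexon, or 27.3%, with a median of 0, against 20.0% of all annotated genes and a median of 0, so the list lay near the background. These were add3 with 6 and add1 with 2, which encode adducins that cap actin filaments and bring spectrin to them, and epb41l5, a band 4.1-like protein, with 1. The locus of add3 was shared with another gene, and no model skipped the microexon of epb41l5. The only other spectrin gene with a model was sptbn1, for a beta spectrin that pairs with alpha-II spectrin, and it had 23 models, up to 27 exons and no microexon. Of 7 genes for other spectrin-repeat and linker proteins, 3 had microexons, or 42.9% against the background of 20.0%: kalrn and trio with 2 each, and actn4, an alpha-actinin, with 1. No model skipped the microexons of kalrn or trio, and the locus of kalrn was shared with another gene. The long linker gene syne1, with up to 70 exons in 14 models, had none. The 7 genes had a median of 16 models and 27 exons, against 6 and 10 for all annotated genes.

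Of 19 genes known for neural microexons in mammals, 8 had an internal exon in the catalogue, and all 8 had at least 1 microexon, with a median of 1, against 20.0% of all annotated genes. The 8 genes were also larger, with a median of 21 models and 22 exons, against 6 and 10 for all annotated genes. The part that size plays in this share was not tested. The microtubule plus-end protein gene clasp1 had 8. The adhesion molecule gene l1cam and the receptor phosphatase gene ptprs had 2 each. The transcription factor genes mef2a, mef2c and mef2d, the phosphatase gene ptprd and the kinase gene src had 1 each. Among 18 regulators of neural and muscle splicing, 4 had 1 microexon each, or 22.2%, close to the background of 20.0%. These were celf1, celf2, celf3 and nova1, all RNA-binding proteins. The locus of celf1 was shared with another gene, and no model skipped the microexon of nova1. Of 6 genes for calcium-dependent proteases and partners of alpha spectrin, 3 had microexons, or 50% against the background of 20.0%: capn1, a calpain, had 3, and the Abl interactor genes abi2 and abi1 had 3 and 1. The locus of abi2 was shared with other genes. The median over these 6 genes was 24 models and 12 exons. No list member reached the 14 of sptan1, and none but clasp1, with 44 models, had more than 6. The number of models differed too: the 107 genes with 60 or more models had a median of 5 microexons, against 0 for all annotated genes. Among them sptan1 had 133 models. The other list members with 60 or more models had few microexons: epb41l1 with 61 models and rbfox2 with 80 had 0, and celf1 with 64 had 1. The locus of rbfox2 was shared with another gene. The part that the number of models plays was not tested.

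By the 4 counts used here, the genes most like sptan1 were not spectrin genes. These counts include the microexon number by which sptan1 was chosen, so similar numbers in the nearest genes are built in. Likeness was the Euclidean distance over log2(n + 1) of 4 counts per gene, the largest exon number, the models, the microexons and the skipped exons, among 6946 genes with a symbol, whose median distance was 8.39. The nearest was col1a2, for a chain of type I collagen, at 0.498, with up to 50 exons, 130 models, 17 microexons and 186 skipped exons. It was followed by pzp, an alpha-2-macroglobulin relative, at 0.792 with 11 microexons, and col3a1, another fibrillar collagen, at 0.803 with 23. Then came khsrp, an RNA-binding protein, at 0.944 with 21, at a locus shared with another gene, and myh2, a myosin heavy chain, at 0.961 with 16. Junctions passing 10 or more exons were in 74.4% of sptan1 models, 47.7% of col1a2 models, 52.7% of col3a1 models, 2.44% of khsrp models and 100% of myh2 models. The share for pzp, 96.5%, was not taken over the same 102 models that were counted for likeness.

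**Figure D5:**
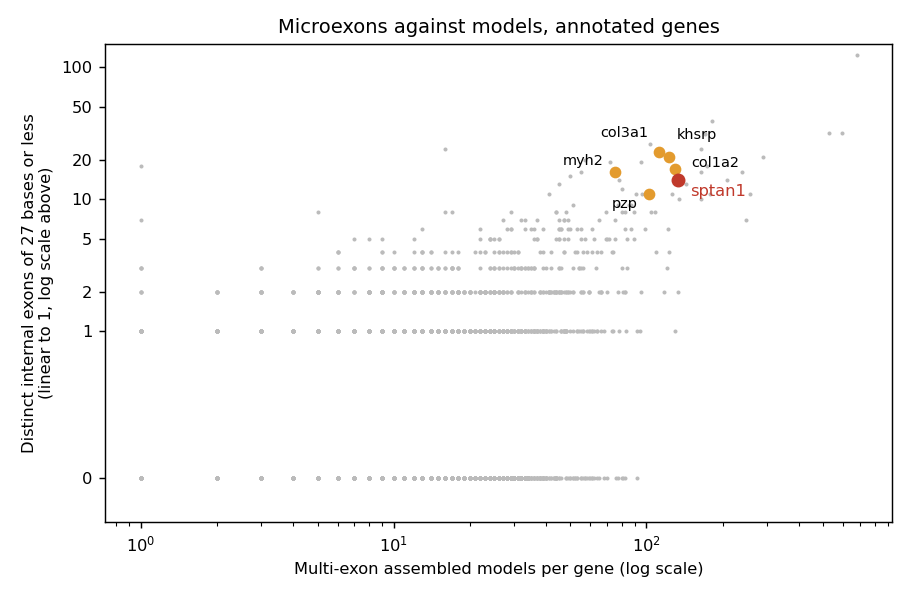
Distinct internal exons of 27 bases or less (vertical axis, linear to 1 and logarithmic above) against multi-exon assembled models (horizontal axis, logarithmic) for annotated genes with an internal exon; sptan1 is red, the 5 genes most like it are orange, all others grey. With 133 models and 14 microexons, sptan1 lies among other genes with many models.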

How the data were processed

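Polyadenylated RNA of 40 libraries was analysed as 1 pooled catalogue. Bowtie, TopHat and Cufflinks were used per the submitters' processing notes. Versions, settings, genome build and annotation: not given in the sources used here. The authors deposited gene models with exon ends for 159469 transcripts. The deposited column headed FPKM was treated as a score, the relative weight, because no value exceeds 1 and 58.9% of 167756 values equal 1. The deposited coverage is a value of unknown scale, 3.83 in 76 of the 133 sptan1 models and 0.425 to 3.83 over all of them. It took 10 distinct values, and as many models had its highest value as had a weight of 1. Coverage was therefore not read as a measure separate from the weight. It is not depth, which is unknown.

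Models of sptan1 were taken by symbol and strand. Lengths, positions, skipping, spanning models and use of both flanking splice sites were computed with Python 3.11.15, NumPy 2.4.6, pandas 2.3.3 and matplotlib 3.10.9. The functions for internal exons, positions, skipped exons and retained introns were tested on simulated gene models. In these, each skipping model left out 1 microexon, no splice site was moved, and positions were checked by their number only. Positions with several forms, the choice of leading form and junctions passing several exons were not simulated. The rules for spanning models and for both flanking splice sites were not tested in that way either. A microexon had at most 27 bases. A model spans an exon when its first and last exons lie on either side of it. The leading form of a position is the one in most models. Exons holding an intron that at least as many models splice were left out of the positions. Annotated genes are those with a model on their own strand. Counts over models say nothing of RNA amount, and whether end moves of a few bases come from read alignment was not tested. Since libraries were pooled, 1 model can join exons of different stages.

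Genes named are sptan1, list members with a model and at least 1 microexon, every other spectrin gene with a model, and the 5 most like genes. Provisional symbols were left out. The list members syne1, epb41l1 and rbfox2 were named after their values were seen. The gene and the lists were chosen with earlier results of these data known. The planned limma test over stages was not run because the tables hold no column per library. No sequence is printed because no genome of this build was used here.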

Additional observations from a re-analysis of the deposited data

How the results depend on the processing

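No value has a test or an error, since models of 1 locus are not replicates. The count of 14 microexons was 1 with a limit of 15 bases, 36 with a limit of 51, and 6 with overlapping exons counted as 1. It was 10 for exons in at least 2 models and 11 with models of weight 1 only. With both flanking splice sites required, inclusion of the 21-base exon was 96.2% against 57.4%, and of the 15-base exon 23.7% against 14.8%. This rule leaves out models passing whole stretches and models that used other splice sites at the flanks. Of the 70 models with the 21-base exon it kept 51. The same rule gave 68.0% against 64.8% for the 18-base exon, and weighting models by their relative weight gave 60.4%. With at least 2 models for each form, skipped exons numbered 88 against 140, alternative acceptors 23 against 55, alternative donors 14 against 27, exclusive pairs 0 against 5, first exon donors 9 against 21 and last exon acceptors 1 against 5. With models of weight 1 only, there were 76 models against 133. Among exons in at least 2 models and skipped by at least 2, microexons were 11.4% in sptan1 and 5.38% in all annotated genes, against 10% and 2.94%. No paired analysis was possible because the tables hold no value per library. The pooled assembly sets the limit: neither depth nor spread between libraries is known for any value.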

Other observations

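Both models that carry the symbol but lie on the opposite strand have 2 exons and a weight of 1. One, at 269781 to 270286, is coded as exonic overlap on the opposite strand, has 336 bases and overlaps positions 48 and 49, just before the 18-base exon. The other, at 266283 to 267318, has 361 bases and is coded for an intron that overlaps one on the opposite strand. Whether read alignment made this model was not tested. Its intron runs from 266428 to 267102, and the nearest sptan1 intron, in 125 models, from 266432 to 267106, so that both ends lie 4 bases away and both introns have 675 bases. On the same scaffold and strand, set lies on the 3′ side of sptan1, and odf2 and dnm1 on its 5′ side, while the span covered by the models of wdr34, on the plus strand, includes the whole gene.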
